A study of Homo sapiens with 6 samples.

Results

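The interleukin-1 family and its receptors were examined in the MDA-MB-231 line, human breast carcinoma cells of the triple-negative class that are long established in culture, through 10 genes of the 61552 gene identifiers in the deposited tables. These are the ligands IL1A, IL1B, IL18, IL33 and the antagonist IL1RN, the receptor chains IL1R1 and IL1RAP, the kinases IRAK1 and IRAK2 and the protease CASP1. The genes were chosen by name, with the fold changes of this same comparison already known, so their levels and changes are given as a description and carry no test. Of the 10 genes, 8 passed the filter on low counts, and IL1RN and IL33 did not.

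The cells had been treated for 24 h with 10 μM VNLG-152R, which the study describes as a degrader of the MNK1 and MNK2 kinases, or with its DMSO vehicle. There were 3 samples in each group, and the labels and the methods of the study call them triplicates without saying whether these were separate cultures. The spread among them may be technical, and it is all that the p-values measure. PolyA RNA of whole cultures was sequenced, so the values are RNA levels, protein and secretion were not measured, and a change in how many cells express a gene cannot be told apart from a change in RNA per cell. Group means are given ± SD with n = 3 libraries each, and SE is the standard error beside a log2 fold change, which sets VNLG-152R over vehicle.

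Counts assigned to genes per library numbered 60122936 to 68583224 for vehicle and 69923839 to 82151816 for VNLG-152R. Among all 17084 genes tested with edgeR at an adjusted p under 0.05, 642 were higher and 245 lower with VNLG-152R. The mesenchymal markers VIM, CD44, LGALS1 and S100A4 summed to 6720 to 7020 CPM (counts scaled to library size with TMM factors) in controls and 4860 to 5930 CPM in treated libraries. VIM and S100A4 themselves fell (edgeR adjusted p = 0.0472 and 0.00422). Of 5 genes listed as low or absent in this line, ESR1, at most 8 counts in a library, was close to 0. PGR and CDH1 stayed under 1 CPM in every library. ERBB2, at 84.3 to 118 CPM, and EPCAM, at 11.0 to 15.7 CPM, were well above that. Monocytes and macrophages are a main source of interleukin-1 in tissue, and of 10 of their markers 8 stayed under 1 CPM in every library and AIF1, TYROBP and MS4A7 had no count. PTPRC, the pan-leukocyte antigen, had 1 or 2 counts in each library. The 2 markers above 1 CPM were CD14 and CSF1R, and the whole list summed to 10.5 to 12.2 CPM in controls and 9.35 to 11.3 CPM in treated libraries. Of 5 T-cell markers 4, of 5 endothelial markers 4 and of 4 mast cell markers all stayed under 1 CPM in every library, and PECAM1 held most of the endothelial sum of 21.4 to 26.7 CPM.

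Interleukin-1α and interleukin-1β, the products of IL1A and IL1B, bind the receptor IL1R1, which then recruits the accessory chain IL1RAP. The adaptor MYD88 and the kinases IRAK4, IRAK1 and IRAK2 carry the signal to NF-κB and the stress kinases, and IL1RN occupies the receptor without signaling. IL1B and IL18 are made as precursors that caspase-1, the product of CASP1, cuts to their active form in inflammasomes, whereas the precursor of IL1A is already active and is cut by calpains. In carcinoma cells interleukin-1 is known as an inducer of chemokines, proteases and prostaglandin synthesis.

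Both agonist ligands were higher with VNLG-152R. IL1A (ENSG00000115008, chromosome 2 from 112773915 to 112784590 on the minus strand, GRCh38) was at 11.8, 16.3 and 11.0 CPM in vehicle control replicates 1 to 3 and at 29.9, 33.6 and 34.7 CPM in VNLG-152R replicates 1 to 3. Group means were 13.03 ± 2.85 and 32.8 ± 2.51 CPM (log2 fold change 1.33, SE 0.13). Each treated library lay above each control library, and control replicate 2 was the highest of the controls.

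IL1B (ENSG00000125538, chromosome 2 from 112829751 to 112836903 on the minus strand) was at 40.8, 52.2 and 39.4 CPM in controls and at 139, 131 and 134 CPM with VNLG-152R. Group means were 44.1 ± 7.03 and 135 ± 3.68 CPM (log2 fold change 1.61, SE 0.11). The groups were again apart, the treated libraries lay closer together than the controls, and control replicate 2 was again the highest control. With transcript length taken into account (TPM), the ratio of IL1B to IL1A within a library was 4.17 to 4.66 for controls and 5.03 to 6.02 after VNLG-152R with the longest transcript as length. With the union of exons it was 2.20 to 2.46 and 2.65 to 3.17.

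These were the only members past the threshold, 2 of 8 tested, both higher and none lower, against 3.76% of all tested genes higher and 1.43% lower. Because the members were proposed with this comparison in view, nothing is read from that count. It was 2 under every one of the 15 alternative settings. The log2 fold change of IL1A ran from 1.22 without vehicle control replicate 3 to 1.52 without vehicle control replicate 2, and that of IL1B from 1.53 to 1.74 without the same libraries.

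**Figure D1:**
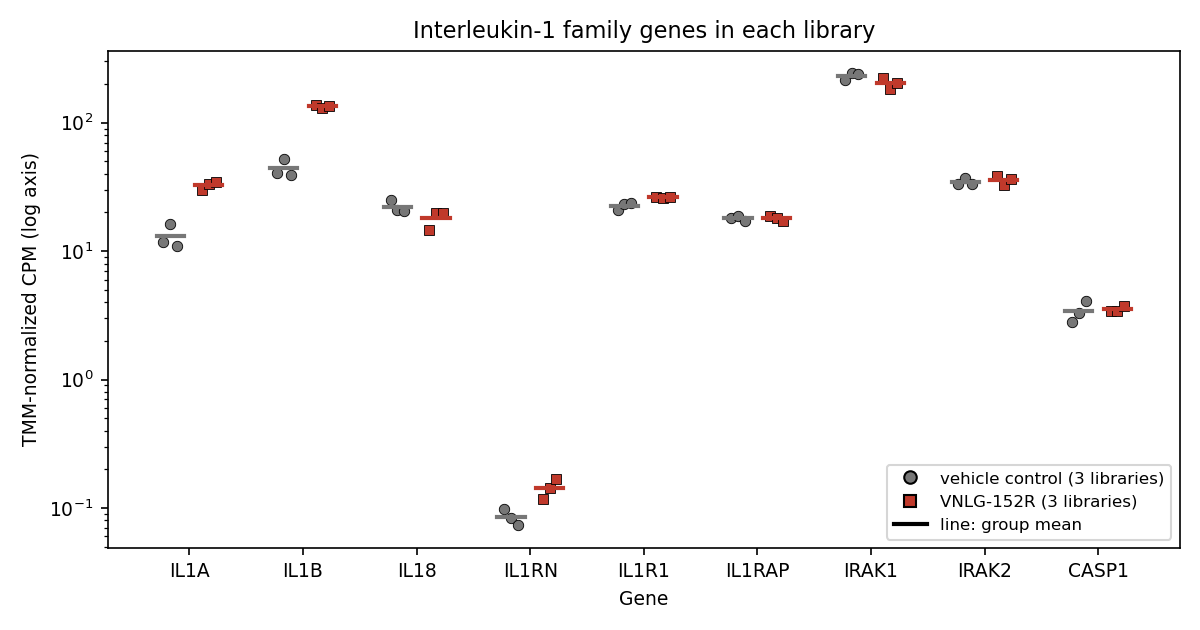
Normalized CPM (log axis) for 9 of the 10 genes, with grey circles for the 3 vehicle control libraries, red squares for the 3 VNLG-152R libraries and lines for group means; IL33, with 1 count in all 6 libraries, is left out. IL1A and IL1B stand furthest apart between the groups. IL1R1, IL18 and IL1RN, the last near 0.1 CPM, are also apart but by small gaps, and IL1RAP, IRAK1, IRAK2 and CASP1 overlap.

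IL1A and IL1B lie on the same strand with 45.2 kb between them, and their upstream sequences are shown since they are the members whose RNA differed most between the groups. Each is read from the RefSeq window of 250 bases before the start site, on the minus strand and 5′ to 3′, up to the outermost start that GENCODE release 29 places further upstream (GRCh38.p14, chr2:112784591-112784743 for IL1A and chr2:112836904-112837029 for IL1B). Capitals mark matches on either strand to the motifs searched, which were AP-1 (TGACTCA or TGAGTCA), the TATA box (TATAAA), the core of the xenobiotic response element (GCGTG) and the NF-κB consensus.
IL1A: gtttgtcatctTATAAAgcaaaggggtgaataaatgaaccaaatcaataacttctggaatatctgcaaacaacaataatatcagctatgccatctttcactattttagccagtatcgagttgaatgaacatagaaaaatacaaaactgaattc
IL1B: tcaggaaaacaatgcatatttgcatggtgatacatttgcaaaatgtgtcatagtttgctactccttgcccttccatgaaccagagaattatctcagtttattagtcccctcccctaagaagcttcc

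For IL1A the more upstream of 2 RefSeq windows is used. The TATAAA letters in its printed sequence begin at position -239 from the RefSeq start. Further along the window, past the printed stretch, matches to AP-1 began at positions -12 and 39 and a match to the xenobiotic response element core, read on the opposite strand, at -50. The IL1B window held no full match to any of the 4 motifs. In every window only the reference letters were searched and near matches were not counted. A missing match therefore does not show that a promoter lacks such an element. Over 35116 promoter windows of 300 bases from RefSeq, 4.95% held AP-1, 11.5% TATAAA, 36.5% GCGTG and 11.3% the NF-κB consensus. A window was at hand for 8 of the 10 members, IL18 and CASP1 having none. The NF-κB consensus matched only in the window of IRAK1, AP-1 matched also in windows of IL1RN and IRAK1, GCGTG also in those of IL1R1 and IRAK2, and TATAAA also in those of IL1RN and IL1R1. IL1RAP and IL33 held no match.

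The antagonist was close to undetected. IL1RN (chromosome 2 from 113107214 to 113134016 on the plus strand), whose product blocks IL1R1, had 6, 5 and 5 counts in control libraries against 8, 11 and 14 in treated ones. Summed over each group this is 0.0846 CPM (95% exact Poisson interval 0.0483 to 0.137) in controls and 0.145 CPM (0.1 to 0.204) in treated cells, intervals that overlap and cover counting error only. It fell under the filter and was not tested. Per length, IL1A exceeded IL1RN by 108- to 178-fold within each control library and by 186- to 229-fold within each treated library, ratios that rest on the few counts of IL1RN. With the union of exons as length these were 183- to 301-fold and 315- to 388-fold. Gene counts do not part the secreted from the intracellular forms of IL1RN.

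IL18 (chromosome 11 from 112143251 to 112164117), a ligand with a receptor of its own, was at 24.9, 20.9 and 20.6 CPM in controls and at 14.6, 19.7 and 19.7 CPM with VNLG-152R. Its log2 fold change was -0.30 (SE 0.12), and it did not pass. The treated libraries lay under the controls, as in 2294 of 17084 tested genes, by less than 1 CPM between the nearest of them. VNLG-152R replicate 1 was the lowest library. IL33 (chromosome 9 from 6215786 to 6257983), an alarmin whose receptor also uses IL1RAP, had 1 count in VNLG-152R replicate 1 and none in the other libraries. With 0 counts over the 3 controls, a level of up to 0.0159 CPM (3 counts) would not have been detectable at this depth.

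The ligands outside the 10 members lie in the same cluster of chromosome 2, a stretch of 360.1 kb from IL1A to IL1RN. IL37, the gene next to IL1B and of a ligand that dampens inflammation, had 8, 8 and 7 counts in control libraries against 27, 31 and 24 in treated ones. It was the only one of the 6 other ligands to pass the filter on low counts, and it passed that filter only through its treated libraries, so its call (log2 fold change 1.56, SE 0.34, edgeR adjusted p = 0.023) rests in part on that selection. The groups did not overlap, but the level was only 0.122 ± 0.017 CPM in controls and 0.365 ± 0.0649 CPM in treated cells. IL37 passed under 7 of the alternative settings. It did not pass under another 6, which were the replicate block, leaving out any 1 of the 3 controls (adjusted p up to 0.122, without vehicle control replicate 3) and leaving out VNLG-152R replicate 1 or 2, and DESeq2 gave it no adjusted p.

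Further along the cluster the counts were at the limit of detection. IL36G, an agonist of epithelia, had 0 to 3 counts in control libraries and 3 to 10 in treated ones. IL36RN, the antagonist of the IL-36 ligands, had at most 5 counts in a library, IL36A and IL36B at most 1, and IL1F10 none. On the other side of IL1A, 9.2 kb away, the mitotic spindle gene CKAP2L went from 131 to 148 CPM and did not pass (log2 fold change 0.18, SE 0.08, edgeR adjusted p = 0.215).

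**Figure D2:**
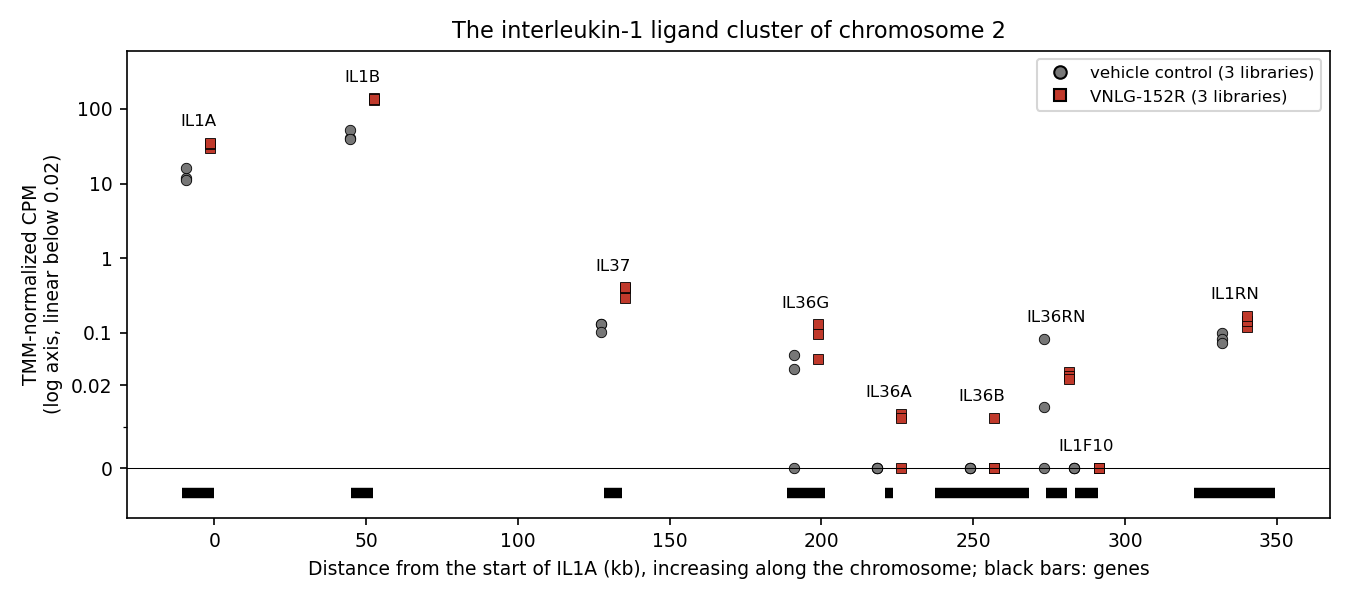
TMM-normalized CPM in each library (log axis, linear below 0.02) for the 9 ligand genes of the chromosome 2 cluster, placed by distance in kb from the start of IL1A, with black bars for the extent of each gene. Grey circles are vehicle controls and red squares VNLG-152R; the groups are apart for IL1A, IL1B and IL37, and also for IL1RN, which was not tested.

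Neither receptor chain among the members passed the threshold. IL1R1 (chromosome 2 from 102064544 to 102179874), the signaling receptor for both agonists, was at 20.8, 23.3 and 23.8 CPM in controls and at 26.3, 25.7 and 26.5 CPM with VNLG-152R. Its log2 fold change was 0.21 (SE 0.08), which did not pass. The treated libraries lay just above the controls, as in 15.1% of all tested genes, and IL1R1, IL1A and IL1B were the 3 of 8 tested members with treated libraries above every control.

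IL1RAP (chromosome 3 from 190514051 to 190659750), the accessory chain shared by the receptors for interleukin-1 and IL-33, was at 18.1 ± 0.826 CPM in control and 18.0 ± 0.891 CPM in treated libraries. The libraries of both groups lay between 17.1 and 18.9 CPM, and the log2 fold change was -0.01 (SE 0.09). Of the exons of IL1RAP, 4.63% are shared with another gene on the same strand. Per length, IL1R1 stood to IL1RAP at 1.32 ± 0.128 in control and 1.53 ± 0.0853 in treated libraries. The ranges of 1.20 to 1.46 and 1.47 to 1.63 only just failed to overlap. With the union of exons as length they were 1.86 to 2.26 and 2.28 to 2.53. The difference in ratio was not tested, and neither gene passed.

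Of 9 other receptors, decoys and binding proteins of the family, 6 could be tested. Of these 1 was higher and none lower, beside 3.76% higher and 1.43% lower among all tested genes. The log2 fold changes of the 6 had a median of 0.38, against -0.002 over all tested genes, and 5 of the 6 did not pass. The one that rose was IL1RAPL1, a relative of IL1RAP known for its role at synapses, from 6.94 ± 0.263 to 10.1 ± 0.231 CPM (log2 fold change 0.54, SE 0.10, edgeR adjusted p = 0.0078). It passed under 14 of 15 alternatives and not without vehicle control replicate 3 (adjusted p = 0.0619). IL1R2, the decoy receptor that captures interleukin-1, lies beside IL1R1 and had 9, 1 and 8 counts in control libraries against 3, 3 and 7 in treated ones, too few to test. Named after their values were seen, IL18BP, which neutralizes IL-18, was at a log2 fold change of 0.52 and the inhibitory receptor SIGIRR at -0.26 (edgeR adjusted p = 0.0707 and 0.138). Neither passed, and 15.6% of the exons of IL18BP lie under the antisense gene NUMA1.

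Neither kinase behind the receptor passed the threshold. IRAK1 (chromosome X from 154010500 to 154019980), which is recruited through MYD88, had the highest CPM of the members, a value not scaled to length. It was at 216, 242 and 238 CPM in controls and 222, 184 and 205 CPM with VNLG-152R. Its log2 fold change was -0.19 (SE 0.09), and VNLG-152R replicate 1 lay within the range of the controls. IRAK2 (chromosome 3 from 10164865 to 10243743), which sustains the signal, was at 34.4 ± 2.09 CPM in control and 35.6 ± 2.91 CPM in treated libraries (log2 fold change 0.05, SE 0.09).

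All 17 other signaling genes between receptor and NF-κB were tested. Of these 1 was higher and none lower, beside 3.76% higher and 1.43% lower among all tested genes. The median log2 fold change of the 17 was 0.04, against -0.002 over all genes tested. PELI2, a ubiquitin ligase that binds IRAK proteins, rose from 9.24 ± 0.626 to 15.1 ± 0.868 CPM (log2 fold change 0.71, SE 0.10, edgeR adjusted p = 0.00129). The groups did not overlap, and PELI2 passed under all 15 alternatives. Its relatives PELI1 and PELI3 had log2 fold changes of 0.10 and 0.14, and IRAK3, which restrains the pathway, of 0.11, and none of these passed.

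CASP1 (chromosome 11 from 105025443 to 105035250) was at 2.83, 3.29 and 4.08 CPM in controls and at 3.40, 3.41 and 3.73 CPM with VNLG-152R. The treated libraries lay inside the range of the controls, and the log2 fold change was 0.05 (SE 0.15). CASP1 has closely related neighbors such as CARD16, and read pairs that aligned to several places were left out of the counts, so its level is uncertain.

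Of 22 genes of maturation and release, 21 matched an identifier and 16 were tested. Of these 1 was higher and 1 lower, beside 3.76% higher and 1.43% lower among all tested genes. The median log2 fold change of the 16 was -0.03, against -0.002 over all tested genes. NLRP1, an inflammasome sensor, rose from 35.1 ± 3.94 to 47.3 ± 5.40 CPM (log2 fold change 0.43, SE 0.11, edgeR adjusted p = 0.0414). HAX1, which binds the precursor of interleukin-1α, fell from 100.1 ± 3.29 to 80.9 ± 4.97 CPM (log2 fold change -0.31, SE 0.08, edgeR adjusted p = 0.0496). Both calls were weak: NLRP1 passed under 8 and HAX1 under 6 of the 15 alternatives, and neither passed without any 1 of the 3 controls. The adjusted p reached 0.132 for NLRP1 without vehicle control replicate 1 and 0.211 for HAX1 without vehicle control replicate 3. NLRP1 also missed the threshold without VNLG-152R replicate 1 or 2, and HAX1 without any 1 of the 3 VNLG-152R libraries. Both missed it with the replicate block (edgeR adjusted p = 0.109 for NLRP1 and 0.184 for HAX1). The same held after a correction for transcript length (edgeR adjusted p = 0.066 and 0.112). HAX1 missed it as well with library size only (edgeR adjusted p = 0.0689). The calpain genes CAPN1 and CAPN2 had log2 fold changes of -0.03 and -0.08 and did not pass.

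Over all 40 tested genes of the pathway outside the members, 4 rose, IL37 among them, and 1 fell, and log2 fold changes had a median of 0.03. That is 5 of 40 beside 887 of 17084 among all genes. The count is not steady. It was 2 without vehicle control replicate 1 or 2, 1 without vehicle control replicate 3 and 2 without VNLG-152R replicate 1 or 2. It was 2 with the replicate block and 3 after a correction for transcript length. Over all tested genes the count moved too, from 887 to 426, 619 and 264 without vehicle control replicates 1, 2 and 3. With the replicate block it was 397, after the length correction 636, and without VNLG-152R replicates 1 and 2 it was 948 and 531.

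Per length, the order of the members depended on the length given to each gene. With the longest transcript as length, in controls IRAK1 led with 182 ± 11.1 TPM, followed by IL1B with 78.1 ± 13.4, IL18 with 37.6 ± 4.31 and IRAK2 with 28.5 ± 2.08 TPM. Below these came IL1A with 17.7 ± 4.10, IL1R1 with 12.7 ± 0.83, IL1RAP with 9.63 ± 0.579 and CASP1 with 4.89 ± 0.85 TPM, and then IL1RN and IL33. Each member lay above the next in all 3 control libraries, so that no neighbors in this order overlapped.

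With VNLG-152R and the same lengths, IL1B came first at 245 ± 3.53 TPM, above IRAK1 at 165 ± 12.8 TPM, and IL1A moved from rank 5 to rank 3 at 45.8 ± 4.47 TPM. IL18 at 31.6 ± 5.77 and IRAK2 at 30.3 ± 2.07 TPM overlapped in the treated libraries. The order of the lower members was as in controls. With the union of all exons as length, IRAK1 stayed first in both groups, at 231 ± 14.5 and 206 ± 16 TPM, and IL1B had rank 2 in both, at 56.8 ± 9.96 and 176 ± 2.89 TPM. IL1A again moved from rank 5 to rank 3, from 24.4 ± 5.75 to 62.6 ± 6.29 TPM. IRAK2 at 39.4 ± 3.02 TPM then lay above IL18 at 33.5 ± 3.86 TPM in controls, and these overlapped.

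**Figure D3:**
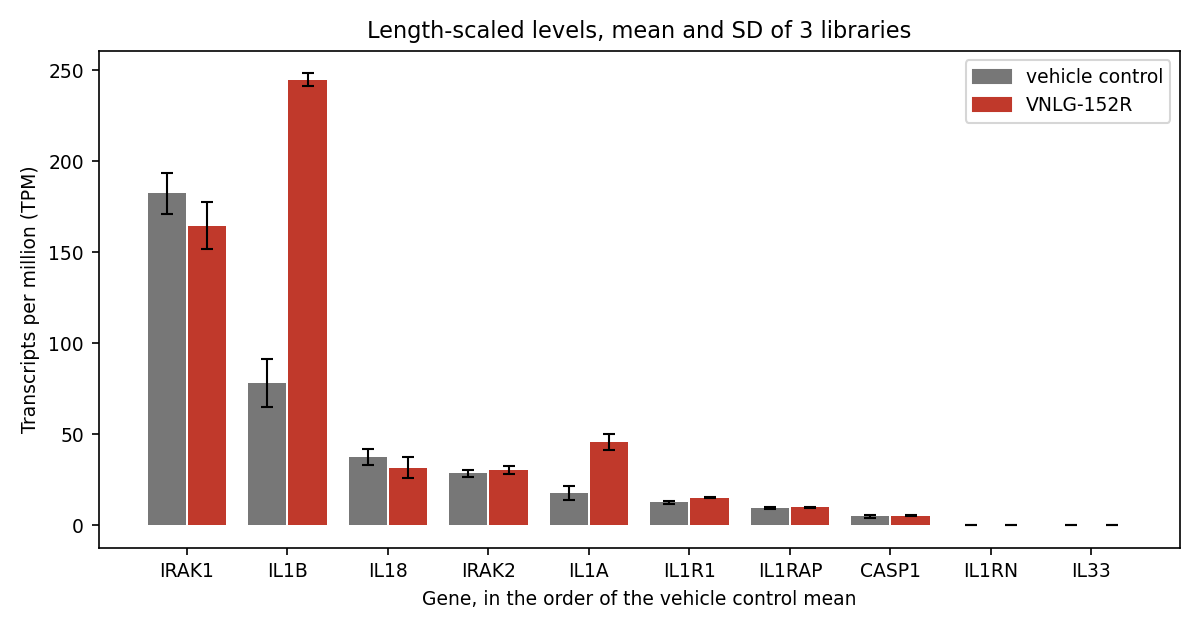
Mean TPM of the 10 members in vehicle controls (grey) and with VNLG-152R (red), ordered by the control mean, with error bars of 1 SD over 3 libraries. Lengths are those of the longest transcript, with which IRAK1 is the highest bar in controls and IL1B, at 245 TPM, the highest with VNLG-152R, an order that did not hold with the union of exons as length.

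Genes that interleukin-1 is known to induce did not move in 1 direction. Of 34 such genes, 33 matched an identifier and 30 were tested, of which 6 were higher and 6 lower, beside 3.76% higher and 1.43% lower among all tested genes. Their median log2 fold change was -0.04. PTGES, the enzyme that makes prostaglandin E2, rose most, from 48.9 ± 6.41 to 150 ± 13.3 CPM (log2 fold change 1.61, SE 0.11, edgeR adjusted p = 4.27e-06). The collagenase MMP1 (log2 fold change 0.83, adjusted p = 0.00118), the cytokine LIF (0.74, adjusted p = 0.00271) and the granulocyte factor CSF3 (0.70, adjusted p = 0.00658) rose as well.

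The chemokines CXCL1 and CXCL3, which attract neutrophils, fell. CXCL1 went from 36.1 ± 0.869 to 21.0 ± 0.656 CPM and CXCL3 from 43.5 ± 3.97 to 25.3 ± 0.746 CPM. Their log2 fold changes were -0.78 and -0.78 (edgeR adjusted p = 0.000111 and 0.000311). They are close paralogs, so reads may be split between them or lost. The cytokines IL11 (-0.61, adjusted p = 0.00267) and IL6 (-0.61, adjusted p = 0.00929) fell too.

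The other 4 genes past the threshold are named here after their values were seen. PTGS2, the inducible cyclooxygenase, and the protease inhibitor SERPINB2 rose, with log2 fold changes of 0.53 and 0.88. NFKBIA, the inhibitor of NF-κB and itself its target, and the growth factor CSF2 fell, with log2 fold changes of -0.45 and -0.40. CXCL8, the main neutrophil chemokine, was at 42.2, 41.1 and 40.6 CPM in controls and at 17.5, 36.3 and 27.6 CPM with VNLG-152R, and did not pass (log2 fold change -0.61, SE 0.19, edgeR adjusted p = 0.0822).

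CXCL1, CXCL3, IL11, PTGES, MMP1 and LIF passed under all 15 alternatives, and PTGS2 and CSF2 under 12 and 9 of them. PTGS2 missed the threshold without control replicate 1 or 3 and without VNLG-152R replicate 2 (adjusted p up to 0.116), and CSF2 without control replicate 1 or 3 and without the second or the third VNLG-152R library (up to 0.174), with the replicate block and after the length correction. IL6, CSF3, NFKBIA and SERPINB2 passed under 14 and not without vehicle control replicate 3, where their adjusted p ran from 0.0512 to 0.082. Their log2 fold changes in that setting were -0.579, 0.641, -0.422 and 0.835. There 6 response genes passed, 3 higher and 3 lower, beside 264 of 17505 among all tested genes. In the main fit 887 of 17084 had passed. Of the exons of IL6, 20.7% lie under antisense genes, and 19.9% of those of SERPINB2 are shared with a gene on the same strand. The libraries were strand-specific, but the strand setting of the counting is not given in the sources used here, so whether reads of IL6 and IL18BP were told apart from those of their antisense partners is not known.

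**Figure D4:**
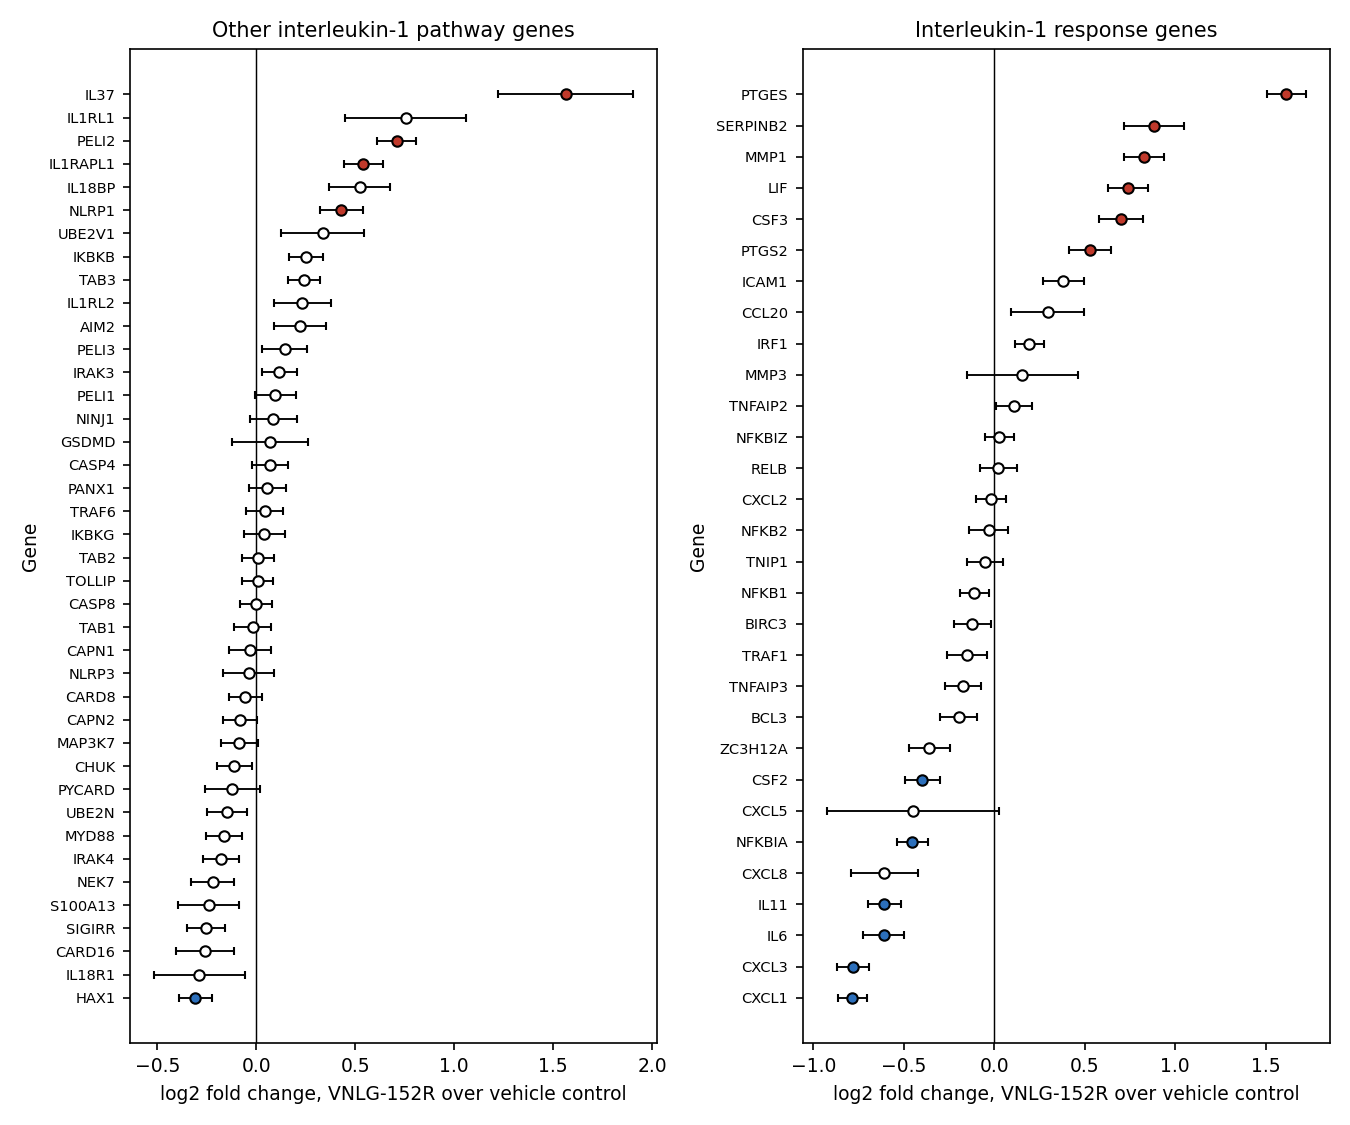
Log2 fold change of VNLG-152R over vehicle with its standard error for the 40 tested other genes of the interleukin-1 pathway (left) and the 30 tested response genes (right). Red points rose and blue points fell at an adjusted p under 0.05, and white points did not pass; the response genes are spread on both sides of 0, with PTGES highest and CXCL1 lowest.

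The genes whose profile over the 6 libraries was most like that of IL1A, by Pearson correlation of log2 CPM among 12511 genes averaging 1 CPM or more, were CLMN, the fatty acid elongase ELOVL6 and the chloride transporter CLCN3 (r = 0.998, 0.998 and 0.996). For IL1B they included ITSN2, an adaptor of endocytosis, and the VEGF receptor KDR (r = 0.997 and 0.996). These correlations are a description over 6 libraries from 2 groups.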

How the data were processed

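Triplicate samples of cells given vehicle or 10 μM VNLG-152R for 24 h were sequenced as strand-specific polyA libraries. The authors deposited raw read counts per Ensembl gene, and the submitters' processing notes name HISAT, HTSeq, DESeq and GRCh38 without versions. The sources used here give neither annotation release nor strand setting. Read classes outside genes were left out of totals. Symbols matched 61399 of 61552 identifiers, and positions, longest transcripts (for TPM) and exon overlaps came from GENCODE release 29. Genes were tested with edgeR 4.0.16 in R 4.3.3 (TMM, filterByExpr, quasi-likelihood F test) with Benjamini-Hochberg adjustment over all tested genes and a threshold of 0.05. Permuting 3 against 3 samples exactly cannot reach a p under 0.1, so that test was not run. The members and lists were chosen with earlier results of these data known. Beside the members, the text names every gene past the threshold from lists where 5 or fewer passed and otherwise up to 4 per direction by p, the nearest tested neighbors of IL1A and IL1B, and the 3 genes most correlated with each (log2 of CPM plus 0.1). Further names were added after values were seen. CARD17 and SOD2 were not analysed here. A gene that the naming rule names is not reported here. TPM was also computed with the union of exons as length. The 15 alternatives were RLE factors, library size only, no filter, genes averaging 1 CPM or more, DESeq2 1.42.0, voom in limma 3.58.1, a replicate block, leaving out each library, a lowess length correction (span 0.3) and thinning to the shallowest library (seed 1). The fits were also run on counts simulated from the means and dispersions of these libraries, with known fold changes. That simulation held no length trend or library effect, so it does not bear on either. Counting intervals are at 95%.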

Additional observations from a re-analysis of the deposited data

Results flagged for a closer look

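Read pairs that fell in no annotated gene, a class outside the comparisons above, made up 3.36% to 5.05% of VNLG-152R libraries and 2.63% to 3.17% of vehicle controls, so each treated library was above each control. VNLG-152R replicate 2 held the highest share, and without it the log2 fold changes of IL1A and IL1B were 1.31 and 1.63. Its part in the results was not tested.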

How the results depend on the processing

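IL1A and IL1B kept their direction and passed under all 15 alternatives. These settings refit the same libraries, and both genes were chosen with their fold changes known. The passes therefore describe the processing and are no test of the 2 genes. The number of genes changed overall was 1539 with no expression filter, 1501 with DESeq2 and 397 with the replicate block, against 887, and 264 to 948 on leaving out single libraries. Other pathway genes past the threshold numbered 5, but 2 with the replicate block, 3 after the length correction and 1 to 4 on leaving out single libraries, and response genes 12, and 6 to 13 likewise. For members near 0 the sign turned: IL1RAP was 0.002 among genes averaging 1 CPM or more and ran from -0.042 to 0.03, IRAK2 from -0.003 to 0.111 and CASP1 from -0.069 to 0.202 on leaving out single libraries. Replicate numbers are shared between groups in the labels, but deviations of same-numbered libraries from their group means correlated at -0.328, -0.223 and -0.19, so the numbers were not taken to pair the samples, and the replicate block is an alternative. It gave 2 members past the threshold. Across 12847 genes, which are no independent replicates, log2 fold change and transcript length correlated (Spearman's rho 0.345). After the length correction the log2 fold changes of IL1A and IL1B were 1.38 and 1.68. Counts of IL1RN, IL33, IL37 and the IL-36 genes limit what can be seen of them.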

Other observations

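Control replicate 2 held the highest control level of IL1A and IL1B, and also of 5 of the 6 response genes that rose and of 1 of the 6 that fell. Among all 642 genes higher with VNLG-152R, control replicate 2 was the highest control in 361 (56.2%), against 5393 of all 17084 tested genes (31.6%) and 42 of the 245 lower genes (17.1%). These are counts over genes that share the same 3 control libraries, and the cause was not tested. Without control replicate 2 the log2 fold changes of IL1A and IL1B were 1.52 and 1.74.

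The receptor genes of the family form a second cluster on chromosome 2, and their RNA differed widely in level. IL1R1 had 1268 to 2192 counts in a library, IL1RL2, the receptor for the IL-36 ligands, 157 to 248, and IL18R1 45 to 62. IL1RL1, the receptor for IL-33, had 14, 28 and 18 counts in control libraries against 39, 37 and 46 in treated ones and did not pass (log2 fold change 0.75, SE 0.30, edgeR adjusted p = 0.165). IL18RAP, the partner of IL18R1, had at most 1 count.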
